A study of Mus musculus with 8 samples.

Results

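Havcr2-positive noncycling CD8 T cells were 2311 of the 53528 cells in a pooled table of dissociated mouse tumours, or 4.32% of all cells, and 2311 of its 9973 CD8 T cells. They were selected on measured values of 19 genes, in the natural log units of the table. A CD8 T cell had a mean of Cd8a and Cd8b1 of at least 0.8, a mean of Cd3d, Cd3g and Trbc2 of at least 0.8, Cd4 below 0.5 and a mean of C1qa and C1qb below 0.8. The cells described here also had Havcr2 of at least 1, Il7r below 0.5, Xcl1 below 1.5, a mean of the cycling genes Pclaf, Rrm2, Ube2c and Cenpf below 0.8, and a mean of the granzyme genes Gzmc, Gzmd, Gzme and Gzmf below 1. They are called Havcr2-positive cells from here on.

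The tissue was tumours formed by Hepa1-6, a hepatoma line of the mouse, and the study asked how editing of Soat1 in these cells alters the tumour's immune cells. The labels give 8 entries, a cDNA and an oligo entry for each of 4 groups. These are tumours of cells labelled WT with intraperitoneal PBS, WT with an antibody against PD-1, Soat1-edited with PBS, and Soat1-edited with the antibody. Editing of Soat1 is written as KO in the titles but as knockdown under genotype, and the labels name whole tumour and liver cancer cells as the material. Strain, age, time after treatment and the number of animals are not given in the labels.

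The cells fall into 6 sets by the last number of their names, and nothing ties a set to a group. The whole table was therefore treated as 1 sample, no genotype or treatment was compared, and no p-value was computed. Nothing states what the 6 sets are, so they are not used as replicates, and values are given for each set or as the range over sets. UMI counts, which are counts of single RNA molecules, could be recovered for set 1, whose 9370 cells had a median of 11099 UMIs. Values of the other 5 sets carry a further change by the authors that is not stated, and include values below 0.

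Havcr2 encodes TIM-3, an inhibitory receptor of the immunoglobulin family that is carried by CD8 T cells after long stimulation by antigen. Together with PD-1, encoded by Pdcd1, it is used to mark exhausted T cells of tumours and chronic infections. Such cells have strong expression of the transcription factor Tox, keep genes of killing such as granzyme B and perforin, and lose the naive and memory programme of genes such as Ccr7 and Il7r. Chemokines such as Ccl3, Ccl4 and Ccl5 are secreted by activated CD8 T cells and attract other leukocytes.

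In the label check, the markers Cd8a and Pdcd1 were both present. Cd8a, part of the rule, had at least 1 UMI in 97.5% of the 203 Havcr2-positive cells of set 1. Pdcd1, which the rule does not use, had a UMI in 187 of these 203 cells. Trdc, the constant gene of the gamma delta T cell receptor, had 0 UMIs in them, and Foxp3, the regulatory T cell factor, had 3. The alpha chain gene Trac was at 324 CPM, the class's UMIs of the gene per 1000000 of its UMIs, against 274 CPM in the other CD8 T cells.

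Havcr2-positive cells made up 23.2% of CD8 T cells, with an exact binomial 95% interval of 22.3% to 24.0%. From set 1 to set 6 they were 203 of 1052, 352 of 1323, 434 of 1901, 490 of 1913, 316 of 1318 and 516 of 2466 CD8 T cells. The shares were 19.3%, 26.6%, 22.8%, 25.6%, 24.0% and 20.9%, with a median of 23.4%. The interval of set 1, 17.0% to 21.8%, lay below that of set 2, 24.2% to 29.1%. As a share of all cells they ranged from 2.17% to 6.28% over the sets, while CD8 T cells ranged from 11.2% to 27.8%. All intervals in the text cover counting error only.

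The other 7662 CD8 T cells were divided by the same limits into 5 classes, taken in a fixed order. Cycling cells were 2701, or 27.1% of CD8 T cells, and 333 cells (3.34%) passed the limit for Gzmc to Gzmf. Cells with Xcl1 of at least 1.5 were 761 (7.63%), and cells with Il7r of at least 0.5 were 1049 (10.5%). The remaining 2818 cells (28.3%) met every limit but had Havcr2 below 1, and are called Havcr2-low cells. Havcr2 of at least 1 was not limited to the noncycling cells. It was found in 36.2% of the cycling cells, 77.8% of the granzyme C to F cells, 28.6% of the Xcl1-high cells and 45.4% of the Il7r-positive cells.

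**Figure D1:**
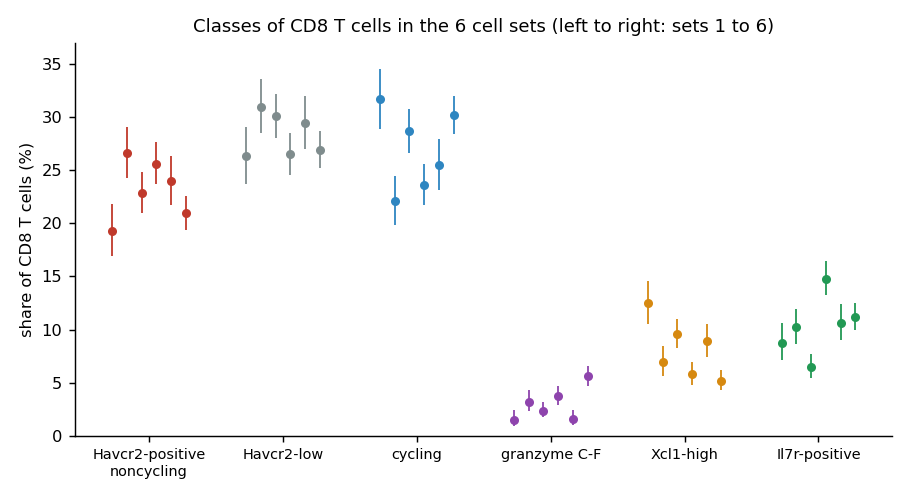
Share of CD8 T cells (%) in each of 6 classes; each point is 1 of the 6 cell sets, in order from set 1 to set 6, with its exact binomial 95% interval. Havcr2-positive noncycling cells lay between 19.3% and 26.6% in every set, and the granzyme C to F class lay at or under 5.60%.

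Havcr2 itself chose the cells and is given as a description. Its median value over the Havcr2-positive cells of a set was 1.67, 1.65, 1.72, 1.56, 1.57 and 1.53 from set 1 to set 6. In set 1, 83 of the 203 cells held 1 Havcr2 UMI, 58 held 2 and 62 held 3 or more. A single UMI reached the limit in cells of up to 5820 UMIs, so depth enters the choice of cells. Among the 277 Havcr2-low cells of set 1, 233 had 0 Havcr2 UMIs, 38 had 1, 5 had 2 and 1 had 3 or more. Hepatoma cells of the same set, taken as cells with Afp and Alb but no T cell receptor or Cd8 UMI, had a Havcr2 UMI in 5.73% of 3976 cells.

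Depth differed between the classes of set 1. The median was 4197 UMIs in Havcr2-positive cells, 3698 in Havcr2-low cells, 8691 in cycling cells and 5773 over all other CD8 T cells. The Havcr2-positive cells held 969020 UMIs in all and the other CD8 T cells 6356425, of which the cycling cells held 3583350. The comparison with all other CD8 T cells is therefore weighted towards cycling cells, and each gene is also given against Havcr2-low cells. The part that depth takes in the differences was not tested. For some named genes, ratios were also computed in cells thinned to 1000 UMIs, in cells of 2000 to 8000 UMIs or without cycling cells. They are given where a 1.5-fold difference or direction did not hold in them. Il1r2, Serpinb9b, Spp1, Slc2a3, Ccl1, Tnfrsf4, Il10, Cd7 and Klra3 were among the genes without such ratios. Scrublet marked 0 Havcr2-positive cells and 10 of the other CD8 T cells of set 1 as doublets.

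Over 966 genes outside the rule with at least 30 UMIs in set 1, 75 genes (7.76%) were at least 1.5-fold higher in Havcr2-positive cells than in the other CD8 T cells, and 235 genes (24.3%) were at least 1.5-fold lower. Against Havcr2-low cells, 32 of 669 genes (4.78%) were higher by this fold and 76 (11.4%) were lower. The median log2 ratio over these genes was -0.06 against the other CD8 T cells and -0.01 against Havcr2-low cells. Of the same 966 genes, the mean deposited value was higher in Havcr2-positive cells in all 6 sets for 68 (7.04%) and lower in all 6 for 261 (27.0%). Against Havcr2-low cells the counts were 134 of 669 (20.0%) higher and 16 (2.39%) lower. The list counts below stand beside these shares over all genes.

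A smaller group differed by at least 0.2 in the mean value in every set, out of all 1981 genes outside the rule. Ccl3, Ccl4, Ccl5, Nr4a2 and Cxcr6 were the 5 genes (0.252%) higher by this amount than in the other CD8 T cells. There were 33 genes (1.67%) lower. Against Havcr2-low cells the 6 higher genes (0.303%) were Gzmb, Prf1, Ccl3, Ccl4, Tnfrsf9 and Rgs16. No gene (0%) was lower by 0.2 in every set. Ccl3 and Ccl4 were thus in both groups.

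Inhibitory receptors and regulators of exhaustion came first, since Havcr2 belongs to them. Of the 20 genes on this list, 8 besides Havcr2 were in the table. One of them, Nr4a2, was at least 1.5-fold above the other CD8 T cells, where 7.76% of all genes tested were, and none was 1.5-fold lower. The Nr4a2 ratio was under 1.5 in cells of 2000 to 8000 UMIs, at 1.39, and without cycling cells among the others, at 1.36. The median log2 ratio of the 8 genes was 0.31 against the other CD8 T cells and 0.23 against Havcr2-low cells. The mean value of Pdcd1, Ctla4, Tox, Nr4a2 and Rgs16 was higher in all 6 sets in both comparisons. Not every class was lower: Tox was above cycling cells in 2 of 6 sets, and Ctla4 was above the granzyme C to F cells in 0 and above Il7r-positive cells in 1. Pdcd1 was above the granzyme C to F cells in 3 of 6 sets and Rgs16 in 4. Rgs16 was above Xcl1-high cells in 3 and Nr4a2 in 4. Cd160, Nr4a3 and Ikzf2 were higher in some sets and lower in others.

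Pdcd1, the PD-1 gene, had mean values in Havcr2-positive cells of 2.12, 2.13, 1.89, 1.93, 1.95 and 1.91 from set 1 to set 6. In Havcr2-low cells they were 1.94, 1.72, 1.70, 1.65, 1.77 and 1.77. Havcr2-positive cells were higher within each set, but the highest Havcr2-low set overlapped their range. In set 1 Pdcd1 stood at 977 CPM against 831 CPM in Havcr2-low cells and 748 CPM in all other CD8 T cells, ratios of 1.18 and 1.31. In cells thinned to 1000 UMIs, Pdcd1 was detected in 61.1% of Havcr2-positive cells, 54.9% of Havcr2-low cells and 0.578% of hepatoma cells.

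Nr4a2, a nuclear receptor induced by T cell receptor signalling, had mean values of 2.16, 2.07, 2.02, 2.12, 2.11 and 1.99. The Havcr2-low cells had 1.91, 1.91, 1.79, 1.80, 1.68 and 1.84, and the 2 ranges did not overlap. Nr4a2 stood at 1214 CPM in set 1, 1.62-fold above the other CD8 T cells and 1.25-fold above Havcr2-low cells. Tox, the transcription factor that maintains exhausted cells, was at 382 CPM, against 297 CPM in the other CD8 T cells and 353 CPM in Havcr2-low cells. The Tox ratio of 1.08 over Havcr2-low cells was 0.99 in cells of 2000 to 8000 UMIs, so its direction in set 1 was not the same in that depth range. Ctla4, an inhibitory receptor that competes with Cd28 for its ligands, was at 771 CPM, 1.30-fold and 1.17-fold higher than in these 2 groups. Rgs16, a brake on G protein signalling, was at 1322 CPM, against 1104 CPM in the other CD8 T cells and 1094 CPM in Havcr2-low cells.

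Lymphocyte chemokines were divided, with genes past the fold in both directions. All 6 list genes in the table passed the minimum, and Ccl3, Ccl4 and Ccl5 were at least 1.5-fold above the other CD8 T cells. Ccl1 and Cxcl10 were at least 1.5-fold lower. Of the 6 classes, Xcl1-high cells had the highest levels of these 2 genes in set 1, at 224 and 191 CPM. The mean value of Cxcl10 was lower than in the other CD8 T cells in all 6 sets, while that of Ccl1 was higher in 1 set. The median log2 ratio was 0.26 against the other CD8 T cells and 0.58 against Havcr2-low cells. Among the 6 classes of CD8 T cells, Havcr2-positive cells had the highest mean value of Ccl3, Ccl4 and Ccl5 in each of the 6 sets.

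Ccl4, which encodes MIP-1 beta, had mean values of 2.27, 2.22, 2.10, 2.17, 2.08 and 2.03 in Havcr2-positive cells. The Havcr2-low cells had 1.85, 1.90, 1.77, 1.76, 1.85 and 1.59, and cycling cells 1.55, 1.38, 1.49, 1.05, 1.48 and 1.18. Every Havcr2-positive set was above every set of both. In set 1 the level was 1661 CPM against 847 CPM in the other CD8 T cells, a ratio of 1.96 (95% counting interval 1.85 to 2.07). The ratio to Havcr2-low cells, at 1004 CPM, was 1.66 (1.54 to 1.78). After thinning, Ccl4 was detected in 59.1% of Havcr2-positive, 53.1% of Havcr2-low and 4.43% of hepatoma cells.

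Ccl3, which encodes MIP-1 alpha, had mean values of 1.42, 1.47, 1.30, 1.44, 1.18 and 1.22, against 1.04, 1.06, 0.98, 1.12, 0.94 and 0.85 in Havcr2-low cells. The lowest Havcr2-positive set was above the highest Havcr2-low set. Ccl3 stood at 667 CPM in set 1, 1.55-fold above the other CD8 T cells and 1.61-fold above Havcr2-low cells. Both Ccl3 and Ccl4 were detected in 124 of the 203 cells of set 1, or 61.1%, and neither in 29.

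Ccl5, which encodes RANTES, separated Havcr2-positive cells from the cycling class more than from Havcr2-low cells. Its mean values were 2.75, 2.50, 2.78, 2.71, 2.59 and 2.47 in Havcr2-positive cells and 1.32, 1.44, 1.27, 1.21, 1.19 and 0.85 in cycling cells. The Havcr2-low cells had 2.49, 2.48, 2.40, 2.59, 2.54 and 2.19, within 0.02 to 0.38 of the Havcr2-positive value of their own set. In set 1 the level was 3064 CPM, against 996 CPM in the other CD8 T cells, 530 CPM in cycling cells and 2214 CPM in Havcr2-low cells. The ratio to all other CD8 T cells was 3.07, and without cycling cells among them it was 1.92.

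**Figure D2:**
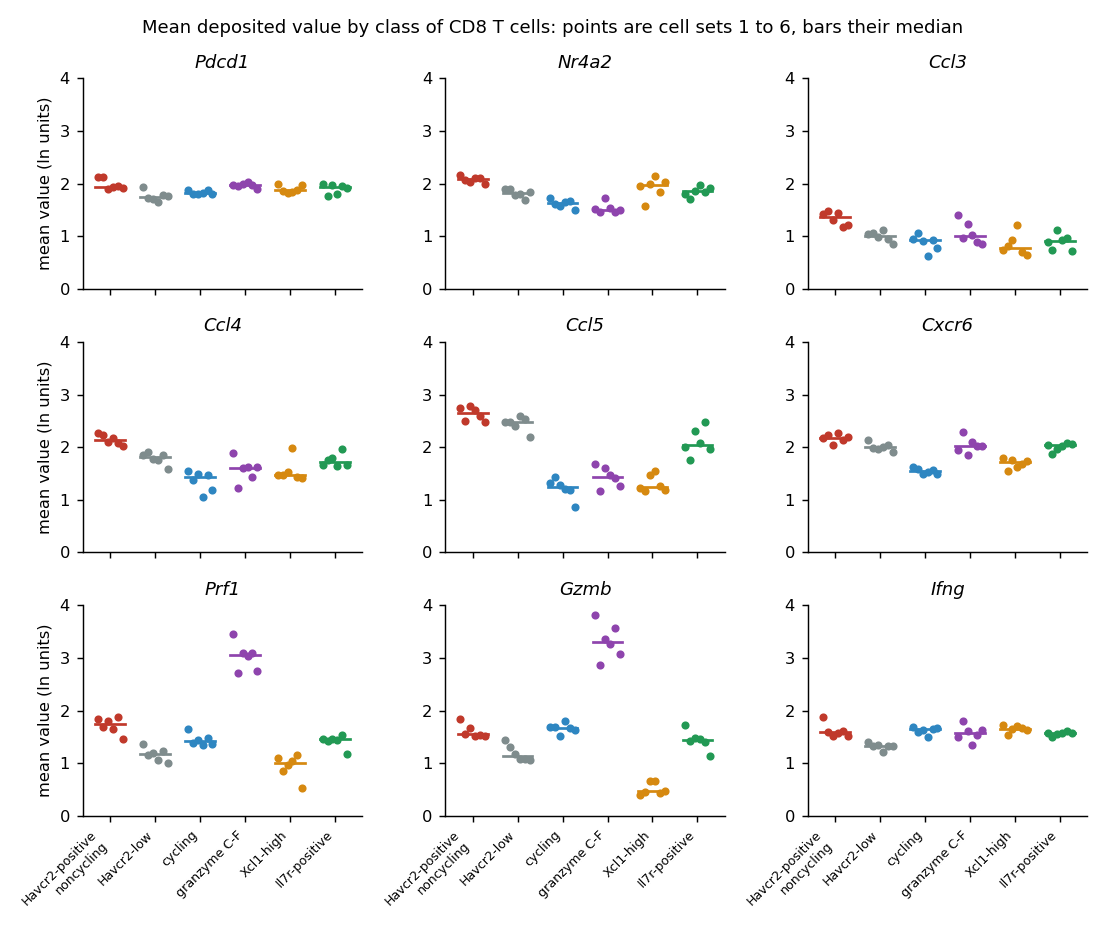
Mean deposited value (natural log units) of 9 genes in each class of CD8 T cells; each point is 1 of the 6 cell sets in order, and each bar their median. Ccl3, Ccl4 and Ccl5 had their highest mean in the Havcr2-positive noncycling class in all 6 sets, while Prf1 and Gzmb had theirs in the granzyme C to F class.

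Genes of the cytotoxic granule were mostly higher in Havcr2-positive cells, with small list medians. Of 15 list genes, 11 were in the table. Gzma was at least 1.5-fold above the other CD8 T cells, and Prf1 and Serpinb9b at least 1.5-fold above Havcr2-low cells. None of the 11 was 1.5-fold lower in either comparison. The median log2 ratio was 0.24 against the other CD8 T cells and 0.17 against Havcr2-low cells, and 0.047 against the others without cycling cells. The mean value of 4 genes was higher than in the other CD8 T cells in all 6 sets, and that of 7 genes was higher than in Havcr2-low cells. Over all genes tested these shares were 7.04% and 20.0%.

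Prf1, the pore-forming protein perforin, had mean values of 1.85, 1.70, 1.79, 1.65, 1.88 and 1.45 in Havcr2-positive cells. The Havcr2-low cells had 1.37, 1.17, 1.19, 1.06, 1.24 and 1.00, all below the lowest Havcr2-positive set. Prf1 stood at 977 CPM in set 1, against 602 CPM in Havcr2-low cells and 827 CPM in all other CD8 T cells, ratios of 1.62 (1.48 to 1.79) and 1.18. After thinning it was detected in 53.7% of Havcr2-positive cells, 35.4% of Havcr2-low cells and 0.503% of hepatoma cells. The granzyme C to F class was higher than both, with a median over the sets of 3.07.

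Gzmb, the granule protease granzyme B, had mean values of 1.85, 1.56, 1.66, 1.53, 1.54 and 1.52. In Havcr2-low cells these were 1.45, 1.32, 1.18, 1.09, 1.08 and 1.06, below every Havcr2-positive set. Its level in set 1 was 1230 CPM against 848 CPM in Havcr2-low cells, a ratio of 1.45. Against all other CD8 T cells, at 1196 CPM, the ratio was 1.03. It was 0.94 without cycling cells among the others and 1.48 in cells of 2000 to 8000 UMIs, so its direction turned with the setting. One of those other cells held 9.23% of their Gzmb UMIs. Of the 7602 Gzmb UMIs of the other CD8 T cells, the 16 granzyme C to F cells held 1730, at 9216 CPM. The mean Gzmb value was above that of all other CD8 T cells in all 6 sets. By class it was above Xcl1-high and Il7r-positive cells in 6 sets, cycling cells in 2 and granzyme C to F cells in 0.

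Pdcd1 and Gzmb, an inhibitory receptor and a killing protein, were each common, with UMIs in 187 and 148 of the 203 Havcr2-positive cells of set 1. Of these 203, 138 (68.0%) had UMIs of both and 6 had neither. Gzmb and Prf1 were both detected in 127 of the 203.

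Gzma, granzyme A, behaved otherwise. Its mean values were low in every set, at 0.37, 0.21, 0.27, 0.05, 0.22 and 0.13, and differed from Havcr2-low cells by -0.06 to 0.05. The ratio of 2.01 to the other CD8 T cells in set 1 was 1.57 without the 1 cell that held 22.4% of the Gzma UMIs, and 1.42 after thinning. Against Havcr2-low cells the ratio was 0.87, and 0.68 without that cell. The top cell of the compared group was kept, with 8.39% of Gzma UMIs in the other CD8 T cells and 14.6% in Havcr2-low cells. Nkg7, a granule membrane protein, was at 1375 CPM, 1.35-fold above the other CD8 T cells and 1.21-fold above Havcr2-low cells, and higher than both in every set.

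**Figure D3:**
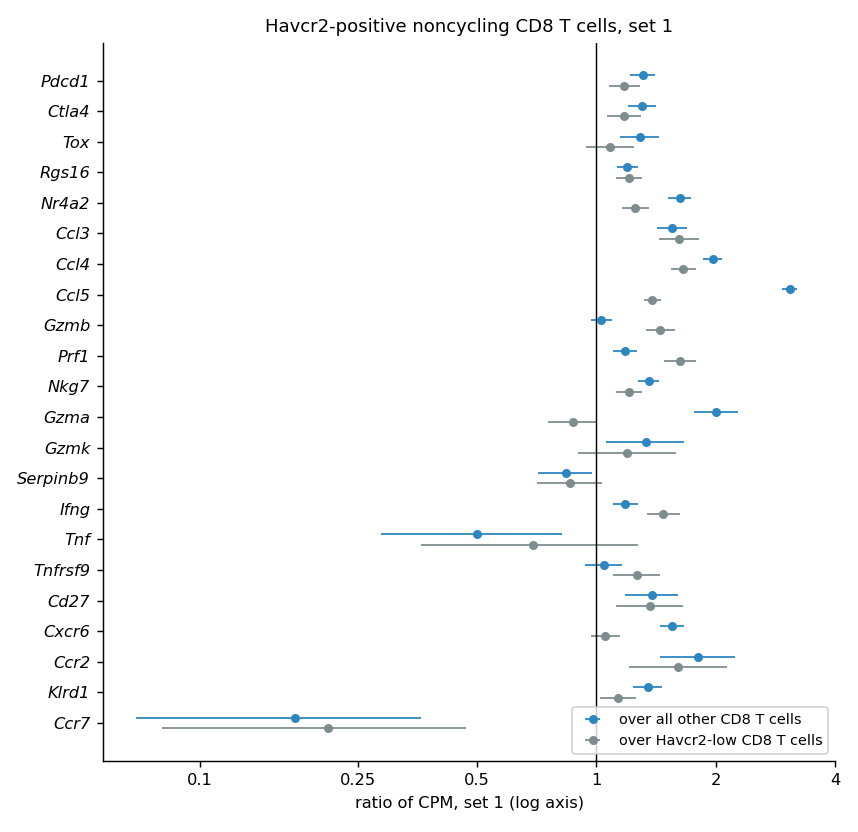
Ratio of CPM in Havcr2-positive noncycling cells of set 1 to all other CD8 T cells (blue) and to Havcr2-low cells (grey), on a log axis with 95% counting intervals. Ccl4 was higher by 1.96-fold and 1.66-fold, while Gzmb was at 1.03 and 1.45 and Ccr7 at 0.17 and 0.21.

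Among cytokines, 9 of 11 list genes passed the minimum against the other CD8 T cells, with 1 higher and 4 lower by 1.5-fold. Over all genes tested 7.76% were higher and 24.3% lower. Ifng, interferon gamma, had mean values of 1.87, 1.59, 1.52, 1.58, 1.61 and 1.52, against 1.40, 1.33, 1.35, 1.22, 1.32 and 1.33 in Havcr2-low cells. Havcr2-positive cells were higher than Havcr2-low cells in each set, and these 2 ranges did not overlap. Their Ifng mean was above that of all other CD8 T cells in 5 of 6 sets. By class it was above cycling cells in 2, Xcl1-high cells in 2, granzyme C to F cells in 3 and Il7r-positive cells in 3. The ratio in set 1 was 1.48 to Havcr2-low cells and 1.18 to all other CD8 T cells. Tnf, tumour necrosis factor, was at 17.5 CPM against 35.1 CPM in the other CD8 T cells, from 17 UMIs, and its mean value was lower in all 6 sets. Against Havcr2-low cells, the Tnf ratio of 0.69 had an interval that included 1. Il10, an anti-inflammatory cytokine, was the gene at least 1.5-fold higher, at 28.9 CPM against 16.0 CPM. Its 28 UMIs were 28.6% from 1 cell, and its mean value was higher in 4 of 6 sets.

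Costimulatory and activation genes differed little from the other CD8 T cells, where 0 of 11 were 1.5-fold higher and 1, Il2ra, was lower. Against Havcr2-low cells, the mean value of 9 of the 11 was higher in all 6 sets, where 20.0% of all genes tested were. Tnfrsf4 was 1.60-fold higher than in Havcr2-low cells in set 1. Tnfrsf9 encodes 4-1BB, a receptor induced by antigen. Its mean value lay between 1.17 and 1.31 over the sets, against 1.05, 0.94, 0.93, 0.84, 0.79 and 0.81 in Havcr2-low cells, which were all lower. The cycling class, at 1.14 to 1.24, overlapped the Havcr2-positive range. In set 1 the Tnfrsf9 ratio to all other CD8 T cells was 1.04, and 0.98 without cycling cells among them. Cd27, a costimulatory receptor of the same family, was at 215 CPM against 156 CPM in the other CD8 T cells and 158 CPM in Havcr2-low cells, and higher than both in every set.

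T cell receptor genes outside the rule showed no 1.5-fold difference in either comparison, over 9 genes past the minimum. Their median log2 ratio was 0.19 against the other CD8 T cells and 0.15 against Havcr2-low cells. Beside shares of 7.04% and 20.0% over all genes tested, 3 and 7 of these genes were higher in all 6 sets. Cd2, an adhesion receptor, was one of them, at 259 CPM against 213 CPM in Havcr2-low cells.

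Homing receptors included 2 genes at least 1.5-fold above the other CD8 T cells, Cxcr6 and Ccr2, out of 7 past the minimum. Over all genes tested the share was 7.76%. The Cxcr6 ratio was 1.28 after thinning, 1.16 in cells of 2000 to 8000 UMIs and 1.17 without cycling cells among the others, so it did not stay past 1.5-fold. Cxcr6, the receptor for Cxcl16 on tissue-resident and tumour T cells, had mean values of 2.17, 2.23, 2.05, 2.26, 2.13 and 2.19. Cycling cells had 1.62, 1.59, 1.49, 1.52, 1.57 and 1.48, all lower. In Havcr2-low cells Cxcr6 was at 2.13, 1.99, 1.96, 2.01, 2.04 and 1.90, so that the ranges overlapped. The set 1 ratio of 1.55 to the other CD8 T cells was 1.05 to Havcr2-low cells. The latter was 0.95 in cells of 2000 to 8000 UMIs and 0.99 after thinning. Ccr2, a receptor for monocyte chemoattractants, was at 112 CPM, 1.81-fold and 1.60-fold above these 2 groups, but above Havcr2-low cells in 4 of 6 sets only.

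Naive, memory and progenitor genes were sparse. Of 9 list genes in the table, 7 passed the minimum against the other CD8 T cells. Cd7 was higher by 1.5-fold in set 1, and Ccr7 and Dapl1 were lower. The mean value of Cd7 was not higher in all 6 sets. Ccr7, the lymph node homing receptor, was at 7.22 CPM against 41.7 CPM in the other CD8 T cells and 34.4 CPM in Havcr2-low cells. These are ratios of 0.17 (0.07 to 0.36) and 0.21 (0.08 to 0.47), and the mean value was lower in all 6 sets in both comparisons. Dapl1 had 0 UMIs, which allows up to 3 UMIs or 3.10 CPM, at least 2.34-fold lower than the 7.24 CPM of the other CD8 T cells. Other list members such as Tcf7 and Slamf6 were not analysed here.

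NK-type lectin receptors of CD8 T cells were present, while the receptors typical of NK cells were near 0. Klrd1, which encodes CD94, was at 712 CPM, 1.35-fold above the other CD8 T cells and 1.13-fold above Havcr2-low cells. Its mean value was higher than in both in every set, and the ratio to Havcr2-low cells was 0.99 after thinning. Ncr1, Klra1, Klra6 and Klra8 had 0 UMIs. Of the 8 genes past the minimum, Klra3 was at least 1.5-fold higher than in the other CD8 T cells, from 21 UMIs. The mean value of Klra3 was not higher in every set. Fcer1g and Tyrobp were lower by this fold, from 13 and 4 UMIs. Against Havcr2-low cells 1 of 6 was lower by the fold, Fcer1g.

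The cycling genes outside the rule followed the limit that the rule sets on other cycling genes, so their level is a description. Of 25 genes, 22 were at least 1.5-fold below the other CD8 T cells and none was higher, with a median log2 ratio of -1.63. Against Havcr2-low cells 4 of 24 were lower, with a median of -0.31. Mki67, the Ki-67 proliferation antigen, was at 69.1 CPM, against 114 CPM in Havcr2-low and 517 CPM in cycling cells. The mean value of Mki67 was above that of Havcr2-low cells in 2 of 6 sets, so this direction was not shared by all sets. Of the 24 genes, 2 were higher and 0 lower than in Havcr2-low cells in all 6 sets by the mean value. Troap, a spindle protein gene, had 0 UMIs, at least 4.88-fold lower than the 15.1 CPM of the other CD8 T cells.

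Of the 12 genes furthest below the other CD8 T cells in set 1 with the same direction in every set, 11 have known roles in cell division: Troap, Hmmr, Pimreg, Aurkb, Knl1, E2f8, Prr11, Plk1, Aspm, Ndc80 and Ccna2. The other was Gzmg, a granzyme of the locus whose members the rule limits, with 1 UMI against 207. The 12 furthest above were Ccl5, Areg, Ccl4, Ccr2, Lilr4b, Trp53inp1, Ighm, Ccl6, Nr4a2, Ccl3, Cxcr6 and Akap12, of which Ighm was lower in all 6 sets by its mean value. Ccl6 and Akap12 rest on 14 and 11 UMIs. Areg, the growth factor amphiregulin, was 2.22-fold higher from 24 UMIs, and 1.02-fold without the 1 cell that held 54.2% of them. The top cell of the others, with 12.7% of their Areg UMIs, was kept. Lilr4b, a receptor gene of the immunoglobulin family, was at 182 CPM against 104 CPM, 1.75-fold higher. The Lilr4b ratio was 1.46 after thinning and in cells of 2000 to 8000 UMIs, and 1.27 without cycling cells among the others.

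The genes furthest from Havcr2-low cells were picked after their values were seen, as the 10 highest and 10 lowest with the same direction in every set. Il1r2, the decoy receptor of interleukin 1, was the highest, at 50.6 CPM against 23.9 CPM, a ratio of 2.12 (1.33 to 3.41). The Il1r2 ratio was 1.71 without the 1 cell that held 20.4% of its 49 UMIs, while a Havcr2-low cell with 25% of that class's UMIs was kept. Serpinb9b, a serpin of the granzyme inhibitor family, was 1.97-fold higher, and Spp1, osteopontin, 1.87-fold. Against all other CD8 T cells, Il1r2, Serpinb9b and Spp1 had ratios of 1.00, 1.17 and 0.86. The 16 granzyme C to F cells of set 1 were higher in all of them, at 426, 442 and 1406 CPM. Slc2a3, a glucose transporter, was 1.65-fold higher and Plek, pleckstrin, 1.48-fold. Ccl1 was 1.92-fold higher from 32 UMIs, and 1.10-fold without the 1 cell that held 43.8% of them. The Havcr2-low cell that held 52.2% of that class's Ccl1 UMIs was kept, so the 1.10 is one-sided. The lowest after Ccr7 were Gpr183, an oxysterol receptor that guides lymphocytes, and Wars, a tRNA synthetase induced by interferon. Both had a ratio of 0.60, with intervals of 0.44 to 0.81 for Gpr183 and 0.34 to 1.03 for Wars. The Wars interval, from 21 UMIs, included 1. Cxcl10 was at 0.61, and Hspa1a, a heat shock gene, at 0.80.

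Several other lists were described in the same way. Over all genes tested, 7.76% were 1.5-fold higher and 24.3% lower than in the other CD8 T cells. Against Havcr2-low cells these shares were 4.78% and 11.4%. Of 13 interferon response genes past the minimum, 2 were higher and 1 lower by 1.5-fold than in the other CD8 T cells, with a median log2 ratio of 0.25. Heat shock genes had 0 of 5 past the fold in either comparison. Of 5 genes of MHC class II and Cd74, 1 was higher and 2 were lower, and 4 were lower than in Havcr2-low cells with a median of -0.80. None of these 5 genes was lower than in Havcr2-low cells in all 6 sets. Of 6 immediate early genes, 1 was lower by the fold. Regulatory and CD4 T cell markers had 1 of 5 lower, Il2ra, and summed to 1082 CPM against 899 CPM in the other CD8 T cells, of which Ctla4 gave 771 CPM.

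Markers of other cells of the tumour were measured beside these groups. Hepatoma markers summed to 2615 CPM in Havcr2-positive cells, 2769 CPM in the other CD8 T cells and 3153 CPM in Havcr2-low cells, the lowest of these 3 groups being the Havcr2-positive cells. Of 16 of them past the minimum, 1 was higher and 0 were lower by 1.5-fold than in the other CD8 T cells. Macrophage and monocyte markers summed to 438, 360 and 299 CPM in these 3 groups, of which Ccr2, Ly6c2 and Spp1 gave most. The macrophage markers Trem2 and Lyz1 were at 0 UMIs in Havcr2-positive cells, and C1qc and Lyz2 were at 8.26 and 13.4 CPM. Of the 8 past the minimum, 3 were 1.5-fold higher than in the other CD8 T cells, where 7.76% of all genes tested were.

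Neutrophil markers summed to 74.3, 67.8 and 38.8 CPM in the same order, with Retnlg at 0 in Havcr2-positive cells. Il1r2, one of them, gave 50.6 of the 74.3 CPM, and the part of neutrophil RNA in its ratio was not tested. Markers of dendritic cells summed to 10.3, 7.55 and 5.98 CPM, with Cd209a, Siglech and Ccl17 at 0. For fibroblasts and endothelium the sums were 15.5, 16.5 and 12.7 CPM, with Cdh5 and Kdr at 0. B and plasma cell markers summed to 69.1, 32.4 and 32.9 CPM, and 31.7% of the 41 Ighm UMIs came from 1 cell. Mitochondrial genes of the table held 1.06%, 1.11% and 1.17% of the UMIs.

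Several of these genes differed with the level of Havcr2 within the cells that met every other limit. Cells with Havcr2 of 0.5 to 1, just under the limit, had higher mean values than cells below 0.5 for Pdcd1, Ctla4, Tox, Gzmb, Prf1, Ifng, Ccl3, Nr4a2, Cxcr6 and Nkg7 in all 6 sets. The median of Prf1 over the sets was 1.08 below 0.5, then 1.68, 1.65, 1.79 and 1.83 in the bins of 0.5 to 1, 1 to 1.5, 1.5 to 2, and 2 and above. Gzmb gave 1.06, 1.66, 1.64, 1.63 and 1.51, and Pdcd1 gave 1.67, 2.00, 2.00, 1.95 and 1.92. For the medians of Prf1, Gzmb and Pdcd1 the largest rise thus lay below the limit that defines the Havcr2-positive cells, not at it. Across the limit, from 0.5 to 1 up to 1 to 1.5, Ccl4 rose in all 6 sets. Pdcd1 and Cxcr6 each rose there in 5 sets. In set 1 the cells of 0.5 to 1 were the deepest, with a median of 8468 UMIs against 3085 below 0.5 and 2718 at 2 and above, and the part of depth in these steps was not tested.

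Ccl4 was higher again in the cells with most Havcr2. Its medians over the sets were 1.80, 1.90, 2.09, 2.03 and 2.46 in the same bins, and cells with Havcr2 of 2 and above were higher than those of 1 to 1.5 and of 1.5 to 2 in all 6 sets. Ccl3 was higher at 2 and above than at 1 to 1.5 in all 6 sets, with medians of 1.45 and 1.25. Ccl5 was higher at 2 and above than at 1 to 1.5 in 5 of 6 sets. Pdcd1 was higher there in 1 set of 6.

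**Figure D4:**
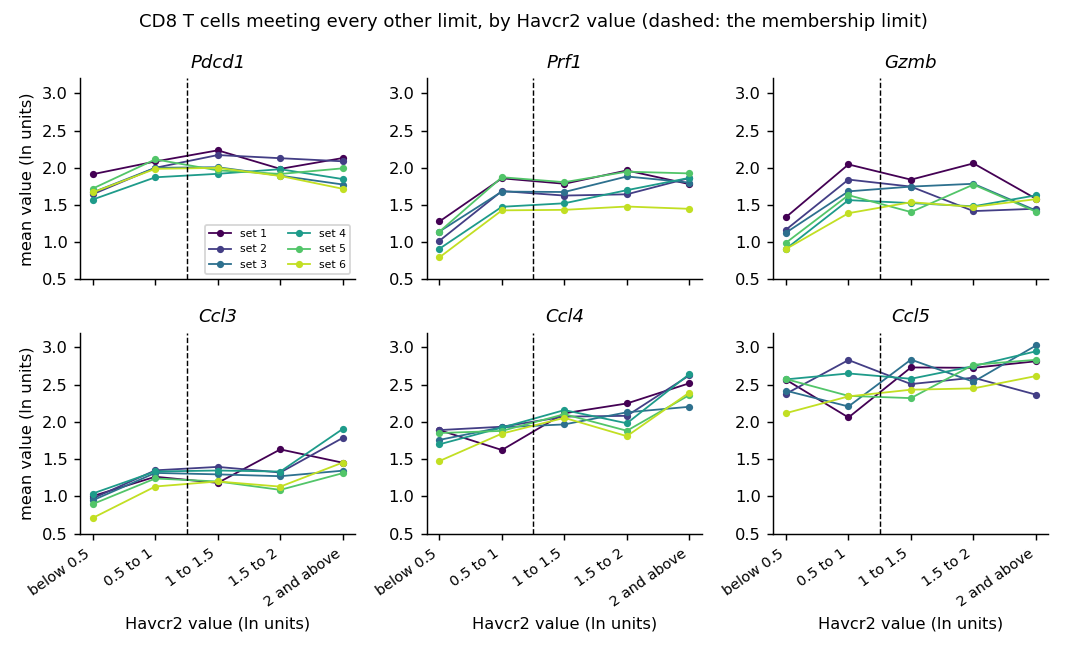
Mean deposited value (natural log units) of 6 genes against the Havcr2 value of CD8 T cells that met every other limit of the rule; each line is 1 of the 6 cell sets and the dashed line is the limit of 1. Prf1 and Gzmb stepped up between the first 2 bins in every set, and Ccl4 was highest at 2 and above.

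Pooled over all sets, cells on the 2 sides of the limit had close mean values. The 285 cells of all sets with Havcr2 of 0.8 to 1 had mean values of 2.05 for Pdcd1, 1.54 for Gzmb, 1.49 for Prf1 and 1.95 for Ccl4. In the 362 cells with 1 to 1.2 these were 2.02, 1.61, 1.60 and 2.03. Single sets differed in direction between these narrow bands. Gzmb and Ccl4 were each lower above the limit in sets 1, 3 and 5 and higher in sets 2, 4 and 6. Gzmb went from 2.23 to 1.68 in set 1, with 24 cells in each band, and from 1.34 to 1.62 in set 6.

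Havcr2-positive cells also varied among themselves. In set 1 cells thinned to 1000 UMIs, the variance over the mean of the counts (Fano factor) had a median of 1.08 over 333 genes. Cxcl2, with 12 of its thinned UMIs in 1 cell, stood at 7.54, Gzma at 7.32 and Ccl5 at 7.17, followed by Gzmb at 3.55 and Ccl4 at 3.44. For Ccl5 the median cell held 18.8 UMIs per 10000 and the cell at the 90th percentile 92.0, while 85.7% of the cells had at least 1 UMI. Gzma was detected in 14.3% of cells, so that few cells held most of it. In Havcr2-low cells the Fano factor of Ccl5 was 7.09 and that of Gzma 13.0, so high values were not limited to the Havcr2-positive cells.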

How the data were processed

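Tumours were profiled by droplet 3′ single-cell RNA sequencing, per the labels' protocols. The submitters' processing notes name STAR 2.7.2b and the builds GRCh38 and mm10, and no coordinates were used. The authors deposited natural log values for 2000 genes chosen by a step not given in the sources used here. Set 1 holds ln(1 + UMIs per 10000 UMIs of the cell), and 100% of nonzero values were whole UMIs within 0.01. All 53528 columns belong to no labelled sample.

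From these values UMIs of set 1 were summed per class as CPM, with exact conditional Poisson 95% intervals for ratios and a pseudocount of 1 CPM for log2 ratios. In all 6 sets mean deposited values were compared. The threshold was 1.5-fold with at least 30 UMIs over both classes, or a difference of 0.2 in every set. Shares have exact Clopper-Pearson intervals. Intervals cover counting error only. Named genes were list genes, and the 12 highest and 12 lowest by set 1 ratio with at least 50 UMIs and 1 direction in all sets, read as the mean value having 1 sign. The members and the 21 lists were chosen with earlier results of these data known.

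Cells were used as deposited. Scrublet (scanpy 1.11.5, expected rate 6%) marked 91 cells of set 1, which were kept in the values and left out as an alternative. The running numbers in cell names are not barcodes, so barcodes shared between sets could not be counted, and 0 CD8 T cell columns were identical. The ratio step was tested on simulated counts. Near-identical genes (Gzmc to Gzmg, Klra genes, Hspa1a and Hspa1b) may share reads. Some list genes are not reported here. Alternatives were other limits, controls, depths and thresholds.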

Additional observations from a re-analysis of the deposited data

How the results depend on the processing

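No paired analysis was possible because no cell column can be tied to a group or replicate. The share of CD8 T cells, 23.2% with Havcr2 of at least 1, was 29.0% with a limit of 0.5 and 13.7% with 1.5, and 4.32% with all cells as the denominator. The 310 genes past 1.5-fold against all other CD8 T cells were 108 against Havcr2-low cells, 175 after thinning to 1000 UMIs and 155 at 2-fold. They were 142 without cycling cells among the others, an alternative chosen after seeing the data, as were cells of 2000 to 8000 UMIs. The 38 genes that differed by 0.2 in every set were 6 against Havcr2-low cells, 6 at a difference of 0.4 and 5 without cycling cells, and 38 to 40 when each set was left out in turn. The cytotoxic list median of 0.24 was 0.047 without cycling cells. The inhibitory list median of 0.31 ranged from 0.20 to 0.34 over all settings tried. Fewer cells and UMIs enter the thinned and depth-limited fits. Depth was known for set 1 only, where genes of under 30 UMIs, such as Tnf and Areg, are poorly resolved.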
